A study of Homo sapiens with 10 samples.

Results

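LSD1 (gene symbol KDM1A) occupied 2052 regions in Kelly neuroblastoma cells that lay outside both lists of RCOR2 regions and held no RCOR2 peak. They make up 16.2% of the 12695 regions with an LSD1 peak in both libraries. Each was chosen by its peak overlaps: it held a peak of both LSD1 libraries and overlapped no region of the RCOR2-high list (6673 regions) or the RCOR2-low list (24637 regions) and no peak of either library of induced, FLAG-tagged RCOR2. They are called outside regions here. The count rests on asking for both LSD1 libraries: the peaks of replicate 2 alone gave 6409 outside regions and those of replicate 1 alone gave 5853. With either induced RCOR2 library left out, the count was 2151 or 2073.

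LSD1 is a histone demethylase that removes methyl marks from histone tails. It works in complexes built on a CoREST scaffold, which is RCOR1, RCOR2 or RCOR3, together with histone deacetylases, and it is brought to DNA by transcription factors, among them those with a SNAG domain. In neuroblastoma, a tumour of the sympathetic lineage, adrenergic cells are held in their state by a circuit of lineage factors that includes GATA3, HAND1 and, in lines such as Kelly, amplified MYCN.

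The study mapped these proteins by chromatin immunoprecipitation and sequencing, with 2 libraries per group. LSD1 was pulled down from untreated Kelly cells that carry a doxycycline-driven shRNA against RUNX1T1. FLAG antibody recovered tagged RCOR2 from Kelly cells given 2 µg/mL doxycycline, which switches on the tagged protein, with untreated cells of the same kind as the uninduced control. Antibodies against RCOR1 and against RCOR3 were used on Kelly cells without treatment. The labels give 48 h for every group. Since LSD1 came from another Kelly derivative and RCOR2 from a transgene, differences between proteins cannot be told apart from differences between these cells and antibodies. Libraries held 10253 to 75643 peaks, and the 2 RCOR1 libraries differed most, with 49250 and 18297.

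The other LSD1 regions formed 2 sets for comparison. In 6065, a list region was overlapped but no induced RCOR2 peak was, and 6050 of these were in the RCOR2-low list. They are called listed regions. The remaining 4578 held an induced RCOR2 peak, with 4127 of them also in a list.

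Few outside regions reached the start of a gene. RefSeq promoter windows (250 bp before to 50 bp after a start, GRCh38.p14) numbered 34961, and 11 of them, from 10 genes, overlapped an outside region. PDE4B, a cyclic AMP phosphodiesterase, NYAP2, a neuronal phosphoprotein, and CCDC22, a protein of endosomal sorting, were the protein-coding ones. The windows below were chosen after their values were seen, as the DNA of outside regions that can be printed here and that holds a searched motif. Capitals mark motif matches on either strand, and the printed matches do not overlap each other. The CCDC22 window, on the plus strand at chrX:49235220-49235519, shared 160 bp with an outside region of LSD1 fold 7.27 and 10.3 in replicates 1 and 2. The LINC02509 window, from a long non-coding RNA gene on the plus strand at chr4:176875452-176875751, shared 211 bp with a region of fold 7.16 and 7.10. The HSPB8-AS1 window, on the minus strand at chr12:119184046-119184345, shared 284 bp with a region of fold 6.41 and 7.82.
CCDC22: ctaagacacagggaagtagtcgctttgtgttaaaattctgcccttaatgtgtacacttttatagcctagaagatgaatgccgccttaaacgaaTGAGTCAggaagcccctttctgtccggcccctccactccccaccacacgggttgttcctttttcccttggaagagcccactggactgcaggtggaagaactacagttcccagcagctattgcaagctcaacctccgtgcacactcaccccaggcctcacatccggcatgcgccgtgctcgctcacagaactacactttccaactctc
LINC02509: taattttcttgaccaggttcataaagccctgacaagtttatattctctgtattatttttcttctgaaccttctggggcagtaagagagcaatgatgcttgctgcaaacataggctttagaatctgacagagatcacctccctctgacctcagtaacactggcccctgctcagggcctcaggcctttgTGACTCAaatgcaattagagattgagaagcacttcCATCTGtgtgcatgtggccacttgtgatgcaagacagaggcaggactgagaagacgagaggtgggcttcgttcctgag
HSPB8-AS1: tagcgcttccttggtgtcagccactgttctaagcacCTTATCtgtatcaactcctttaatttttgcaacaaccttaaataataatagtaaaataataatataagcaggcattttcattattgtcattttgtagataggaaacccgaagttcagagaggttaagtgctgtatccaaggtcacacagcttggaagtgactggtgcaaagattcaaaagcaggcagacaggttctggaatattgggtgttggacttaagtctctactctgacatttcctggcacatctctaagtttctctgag
The motif TGANTCA, read by AP-1 factors, matched 4 of the 11 windows, 11.1% of the 431 that overlapped another LSD1 region and 7.68% of all windows. Among those 4 were a pair of overlapping windows of LINC02675. GATAAG, read by GATA factors, matched 1 of 11, against 11.4% of the 431 and 6.35% of all windows. CATCTG, an E-box, matched 1 of 11, against 18.1% of the 431 and 14.7% of all windows. A paired-type homeodomain motif and CCGCGG matched none of the 11, against 1.62% and 11.4% of the 431, and 0.366% and 19.1% of all windows. The median GC content was 44.3% in the 11 windows, 51.7% in the 431 windows that overlapped another LSD1 region, and 58.7% in all windows.

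The question put first to the outside regions was which CoREST scaffold they carried, given that RCOR2 was left out by the rule. In most, no peak of another scaffold was called, but the rule itself nearly leaves out RCOR1 as well. Of the 2052 regions, 1781 (86.8%) had no peak of RCOR1 or RCOR3 in any library, 89 had RCOR1 without RCOR3, 89 had RCOR3 without RCOR1, and 93 had both. Across all LSD1 regions, a peak of either library was present in 84.0% for RCOR1 and 54.2% for RCOR3.

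RCOR1, the founding CoREST scaffold, had a peak of either library in 182 outside regions (8.87%, 95% interval 7.71 to 10.2). Across all LSD1 regions the share was 84.0%. Replicate 1 of RCOR1 gave 152 regions (7.41%), replicate 2 gave 78 (3.80%), and a merged RCOR1 region with a peak of each library was present in 49 (2.39%). With induced RCOR2 replicate 1 left out of the rule, that last share was 5.07%. Listed regions carried an RCOR1 peak in 100% of cases, and 91.6% of all list regions overlapped a peak of RCOR1 replicate 1. Leaving out the lists therefore nearly amounts to leaving out RCOR1, and its low share is a description of the rule, with no test. Where RCOR1 was present its peaks were lower: the median RCOR1 fold in replicate 1 was 4.36 in outside regions, 6.51 in listed regions and 9.25 in regions with an induced RCOR2 peak.

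RCOR3, the third scaffold, was not named in the rule, although the making of the lists is not described in the sources used here. A merged RCOR3 region with a peak of each library was present in 21 outside regions (1.02%, 95% interval 0.670 to 1.56), in 22.6% of listed regions and in 54.8% of regions with an induced RCOR2 peak. Across all LSD1 regions the share was 30.7%. The difference was -21.6 percentage points against listed regions (95% interval -22.7 to -20.4; Fisher's exact test, adjusted p = 4.07e-158). Against regions with an induced RCOR2 peak it was -53.8 points (95% interval -55.3 to -52.3; adjusted p at the calculation floor of 1e-300). These tests run over regions of the same libraries and cover counting error only. They cannot show a difference in RCOR3 apart from RCOR1, which the rule also selects against. An RCOR1 peak was present in 100% of listed and 8.87% of outside regions, and RCOR3 of both libraries in 1 of 1870 outside regions without RCOR1. The direction held in each RCOR3 library. In replicate 1, 2.00% of outside regions had a peak, against 42.7% and 66.7% of the other sets. In replicate 2, 7.94% had a peak, against 31.0% and 67.4%. The outside share itself moved with the LSD1 libraries, to 0.499% without LSD1 replicate 1 and 0.478% without LSD1 replicate 2, and to 1.58% without induced RCOR2 replicate 1.

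Because RCOR1 presence separates the sets almost completely, RCOR3 was also compared at matched RCOR1 status. Among outside regions with an RCOR1 peak, 20 of 182 (11.0%, 95% interval 7.23 to 16.4) had an RCOR3 region of both libraries, against 22.6% of listed regions and 56.8% of those with induced RCOR2 and RCOR1. The 2 RCOR3 libraries did not give the same order here. In replicate 1, RCOR3 was found in 17.6% of outside regions with RCOR1 and in 42.7% of listed regions, whereas in replicate 2 it was found in 45.1% and 31.0%. Without an RCOR1 peak, RCOR3 of both libraries was present in 1 of 1870 outside regions and in 0 of 157 regions with induced RCOR2. The Wilson 95% interval of that count of 0 reaches 2.39%. In that stratum the difference had the other sign, at 0.0535 points (Fisher's exact test, adjusted p = 1), and no listed region lacked RCOR1.

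The sets also differed in LSD1 fold, so RCOR3 was compared at matched fold. Among regions whose LSD1 fold lay within the quartiles of the outside regions in both libraries, a band chosen after seeing the data, RCOR3 of both libraries was present in 2 of 656 outside regions (0.305%). The share was 6.02% of listed regions and 33.6% of those with an induced RCOR2 peak in the same band. With RCOR1 required as well, it was 2 of 34 outside regions (5.88%), 6.02% of listed regions and 37.0% of those with an induced RCOR2 peak. By library, RCOR3 replicate 1 was found in 17.6% of these outside regions and 18.1% of listed regions. Replicate 2 was found in 4 of the 34 (11.8%) and in 13.9%, so its reversed order was not seen in this band. For RCOR3 of both libraries, the 95% interval on the 34 outside regions ran from 1.63% to 19.1%. So few regions can neither show nor exclude a difference from listed regions, and none was tested there.

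**Figure D1:**
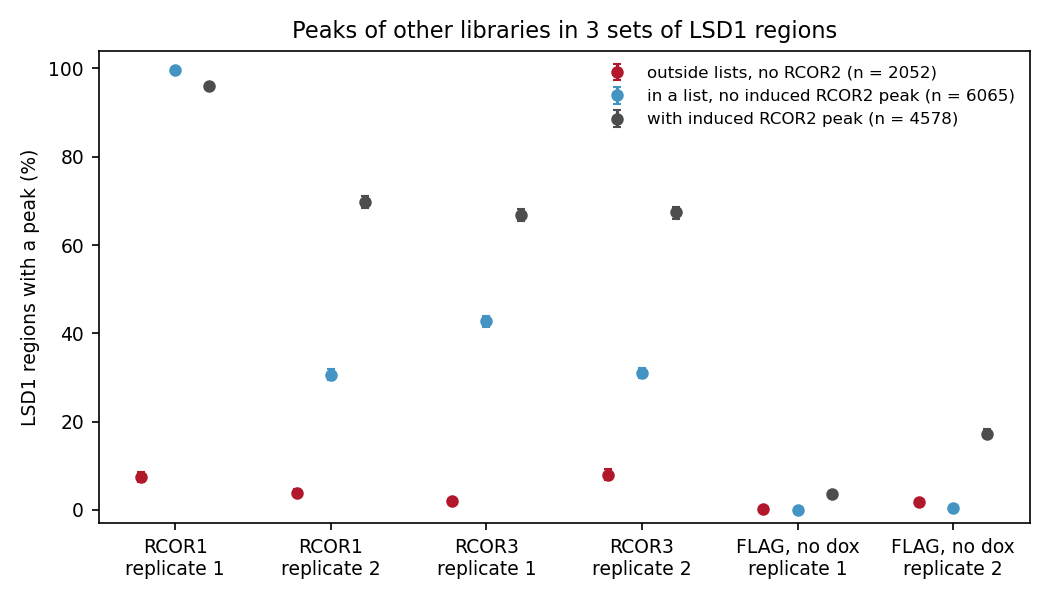
Share of LSD1 regions (%, vertical axis) that held a peak of each RCOR1, RCOR3 and uninduced FLAG library, for the 3 sets of LSD1 regions; points are shares and bars Wilson 95% intervals. Outside regions lie at 7.94% or below in every library shown, and in each RCOR1 and RCOR3 library they lie under the other sets.

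The uninduced FLAG control marked 35 outside regions (1.71%), 0.462% of listed regions and 18.5% of regions with an induced RCOR2 peak. All 35 were found by replicate 2 of that control, whose peaks in them had a median fold of 2.48.

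LSD1 enrichment in outside regions had a lower median than in the other sets, given as a description because LSD1 peaks chose the regions. The median fold was 5.44 in replicate 1 (quartiles 4.70 and 6.34) and 5.81 in replicate 2 (quartiles 4.85 and 6.90). The corresponding medians were 6.39 and 7.42 in listed regions, and 6.61 and 7.10 in regions with an induced RCOR2 peak. The highest outside folds were 16.2 and 26.4, against 54.9 and 78.5 in regions with an induced RCOR2 peak. Outside regions were also narrow, with a median width of 307 bp, against 441 bp in listed regions and 580.5 bp in those with induced RCOR2. The fold of the 2 LSD1 libraries was less alike across outside regions (Spearman's rho 0.477, n = 2052) than across listed regions (0.708, n = 6065) or regions with induced RCOR2 (0.896, n = 4578). The regions in each set share the same 2 libraries and the sets differ in their range of fold.

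The small classes that carried RCOR3 were the weakest in LSD1. In regions with both RCOR1 and RCOR3 the median LSD1 fold was 2.91 and 3.60 in replicates 1 and 2, in those with RCOR3 without RCOR1 it was 3.26 and 4.31, in those with RCOR1 without RCOR3 it was 5.44 and 5.33, and in those with neither it was 5.52 and 5.81. The class with both was also spread widely, since it held the strongest region of all. Of the 182 outside regions with RCOR3 in either library, 35 lay at 40 to 45 Mb of chromosome 10, at median folds of 2.35 and 3.25 for that bin. Another 17 lay at 45 to 50 Mb of chromosome 4, where the bin had 2.33 and 3.20. Whether the low fold of these classes holds without the 2 bins was not tested. When outside regions were ranked by LSD1 fold and cut into 4 equal parts, RCOR3 was present in 21.6% of the weakest part, 3.70%, 3.12% and 7.02% of the following parts. In 62 outside regions (3.02%) the fold was under 3 in both libraries, against 3.58% of all LSD1 regions. The share was 0.115% of listed regions and 8.43% of regions with an induced RCOR2 peak. Of the 62, 49 had no protein-coding gene within 100 kb and 38 had an RCOR1 peak.

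**Figure D2:**
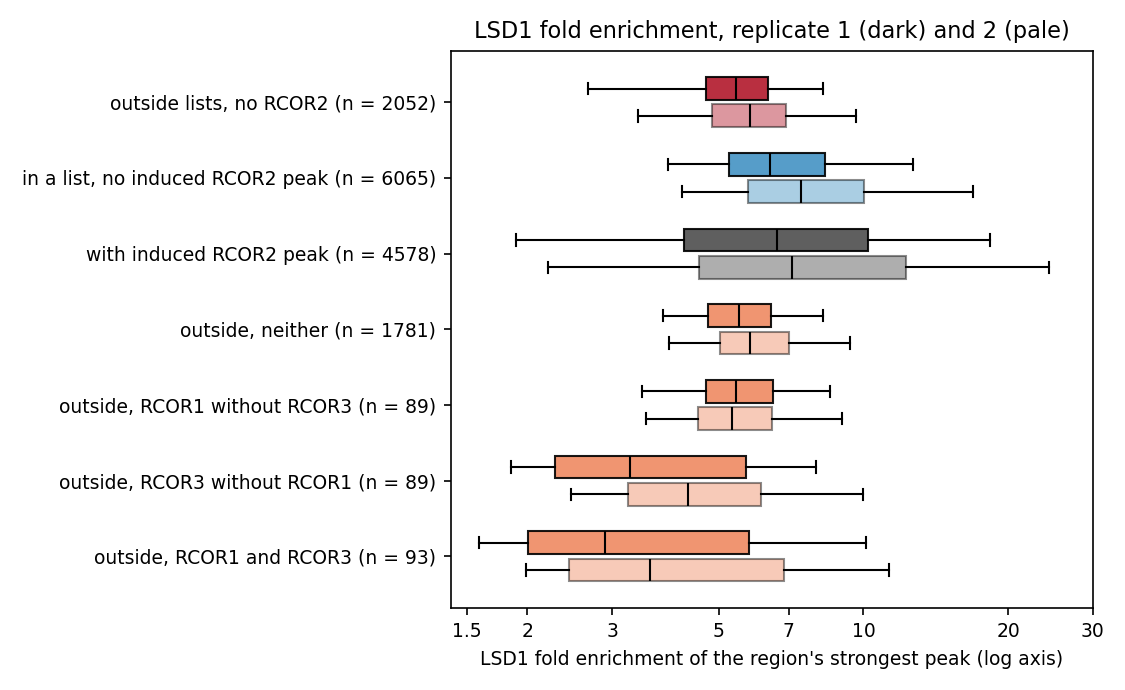
LSD1 fold enrichment (horizontal log axis) in replicate 1 (dark) and replicate 2 (pale) for the 3 sets and for the 4 classes of outside regions; boxes are quartiles with the median and whiskers run from the 5th to the 95th percentile of regions. Outside regions with RCOR3 sit lowest, with medians of 2.91 and 3.26 in replicate 1, while those with neither scaffold sit at 5.52.

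Of the 10 strongest outside regions, 8 lay in a gene body. The highest was in the body of APBA1, an adaptor of presynaptic vesicle release, at chr9:69582755-69583280, with LSD1 fold 16.2 and 26.4. It carried RCOR1 at fold 11.4 and 10.5 and RCOR3 at 8.72 and 8.21. A neighbouring APBA1 region at chr9:69583617-69584031 had LSD1 fold 11.5 and 16.1, again with both scaffolds in both libraries. All 3 LSD1 regions of APBA1 were outside regions.

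Among the 10, the following 6 regions had no scaffold peak. RHEX, a regulator of erythroid cell growth, had fold 11.2 and 15.1 at chr1:206083776-206084153, and RANBP9, a Ran-binding scaffold protein, had 11.2 and 13.5 at chr6:13633399-13633693, 0.928 kb from a gene end. TNFRSF19, a receptor of the TNF family, ST7, STXBP5L, a regulator of vesicle fusion, and HMGXB4, an HMG-box protein, were likewise among the 10, with folds of 10.4 to 10.7 in replicate 1 and 12.8 to 15.8 in replicate 2. All 10 lay above the upper quartile of listed regions in both libraries.

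Classes with a single scaffold also held high folds. BCL9, a Wnt co-activator, had a region 1.83 kb away with LSD1 fold 8.93 and 12.8 and RCOR1 in replicate 1 (fold 4.72). NMNAT3, an enzyme of NAD synthesis, had a region with LSD1 fold 12.3 and 11.6 and RCOR3 at fold 3.79 and 3.46 without RCOR1.

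The next question was where the outside regions lay. They were mostly far from gene ends. A protein-coding gene end lay within 2 kb of 45 outside regions (2.19%, 95% interval 1.64 to 2.92), against 3.61% of listed regions and 11.0% of regions with an induced RCOR2 peak. Across all LSD1 regions the share was 6.06%. The difference from regions with induced RCOR2 was -8.84 points (95% interval -9.93 to -7.70; Fisher's exact test, adjusted p = 1.20e-40). It was -2.95 points when only LSD1 peaks above the median fold were kept (Fisher's exact test, adjusted p = 0.00413) and -16.8 points without LSD1 replicate 2 (adjusted p = 5.23e-188). The difference from listed regions was -1.42 points (95% interval -2.16 to -0.566; Fisher's exact test, adjusted p = 0.00148). That smaller difference did not pass Fisher's exact test without LSD1 replicate 2 (-0.522 points, adjusted p = 0.147), with LSD1 peaks above the median fold (-0.378 points, adjusted p = 0.783) or within the matched fold band (-0.784 points, adjusted p = 0.394).

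The median distance to a gene end was 65.2 kb for outside regions, 60.9 kb for listed regions and 42.2 kb for regions with an induced RCOR2 peak. Gene bodies held 44.2% of outside regions (95% interval 42.1 to 46.4), 48.8% of listed regions and 44.3% of regions with induced RCOR2. No protein-coding gene lay within 100 kb of 523 outside regions (25.5%), against 21.9% and 20.5%. That share was 52.7% in the class with RCOR1 and RCOR3 and 61.8% in the class with RCOR3 without RCOR1. At 40 to 45 Mb of chromosome 10, all 54 outside regions lacked such a gene, and 35 of them had RCOR3. No outside region overlapped any of 1558 miRNA hairpins, and no count for the other LSD1 regions is given for comparison.

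**Figure D3:**
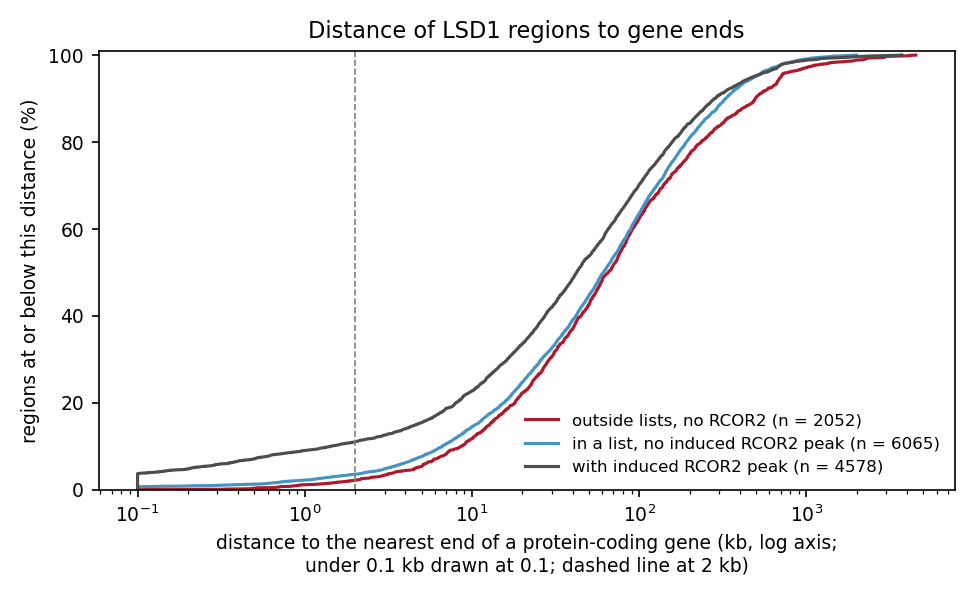
Cumulative share of regions (%, vertical axis) by distance to the nearest protein-coding gene end (kb, log axis) for the 3 sets of LSD1 regions; the dashed line marks 2 kb. At 2 kb the curves stand at 2.19% for outside regions, 3.61% for listed regions and 11.0% for regions with an induced RCOR2 peak.

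Although outside regions overlapped no list region or induced RCOR2 peak, some lay close to them. A list region need not hold an RCOR2 peak. The median gap to the nearest list region or induced RCOR2 peak was 8564 bp, 175 outside regions (8.53%) had one within 500 bp, and 931 (45.4%) had none within 10 kb. At the edge of the rule, 17 outside regions lay within 50 bp of a list region or induced peak and had median LSD1 folds of 5.25 and 5.49. The 23 LSD1 regions that missed the set by an overlap of under 50 bp had medians of 5.17 and 5.54. In all, 732 outside regions (35.7%) shared a cluster, joined across gaps of up to 12.5 kb, with another kind of LSD1 region.

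Outside regions were unevenly spread over chromosomes. They formed 29.8% of the LSD1 regions of chromosome 22 (91 of 305), 24.2% of those of chromosome 7, 20.7% of chromosome 3 and 19.3% of chromosome 1. On chromosomes 18, 19 and 21 the shares were 6.94%, 6.75% and 6.85%. The copy number of these chromosomes in Kelly cells was not analysed here.

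Bins of 5 Mb with the most outside regions were of different kinds. The bin at 40 to 45 Mb of chromosome 10 held 54, with low median folds of 2.35 and 3.25, RCOR3 in 35, and no protein-coding gene within 100 kb of any. Its clusters of 30 and 19 regions spanned 63.8 kb and 38.4 kb. The bin at 45 to 50 Mb of chromosome 4 was similar, with 21 outside regions at median folds of 2.33 and 3.20 and RCOR3 in 17. The bin at 25 to 30 Mb of chromosome 22 held 53 outside regions at the usual fold, 5.17 and 5.81, with RCOR1 and RCOR3 in 0 of them. That count allows a share of up to 5.66%, taken as 3 counts over the 53 regions and not as a Wilson interval. Within 2 Mb of MYCN lay 12 outside regions with median folds of 1.74 and 1.91, beside 228 with an induced RCOR2 peak at 1.61 and 1.81. The 16 listed regions there had median folds of 7.84 and 9.80. Of the 12 outside regions, 9 had an RCOR1 peak, against 8.87% of all outside regions.

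**Figure D4:**
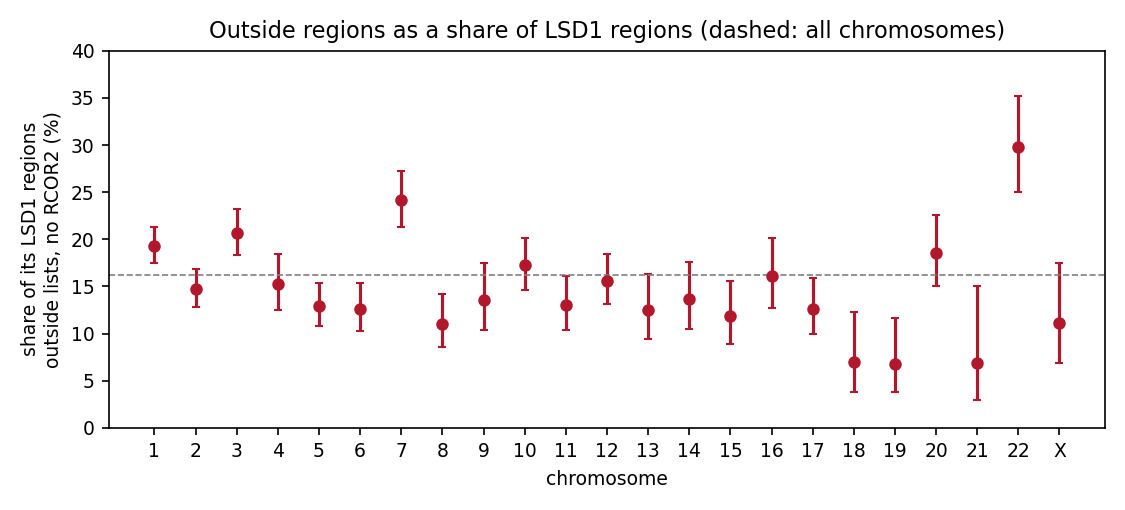
Outside regions as a share (%) of the LSD1 regions of each chromosome, with Wilson 95% intervals; the dashed line is the share over all chromosomes, 16.2%. Chromosome 22 is highest at 29.8% and chromosomes 18, 19 and 21 are lowest, at 6.75% to 6.94%.

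At the level of genes, 1058 of 19970 protein-coding genes (5.30%) had an outside region assigned, and 20.4% had any LSD1 region. For 340 of the 1058, every LSD1 region was an outside region. Genes with an outside region were long, with a median of 114 kb, against 68.3 kb for genes with any LSD1 region and 24.2 kb for all genes. Counts by list are given without a test, and the median gene length is given for the lists described. Over all 18 lists, 44 genes had an outside region. This number was 105 without LSD1 replicate 1 and 106 without LSD1 replicate 2.

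Adrenergic regulators, the factors of the lineage circuit, had an outside region in 6 of 29 genes (20.7%), and 20 of 29 had any LSD1 region. Their median length was 13.9 kb. Outside regions were 10 of the 140 LSD1 regions of these genes (7.14%), against 15.4% of the LSD1 regions assigned to all protein-coding genes. GATA3, a zinc-finger factor of sympathetic development, had an outside region 93.3 kb away at chr10:8168472-8169137, with LSD1 fold 12.1 and 7.74 and neither scaffold. Its other 2 LSD1 regions carried induced RCOR2, and the stronger of them had fold 14.5 and 20.9. HAND1, a basic helix-loop-helix factor, had 2 outside regions of 13, the stronger at fold 6.44 and 6.95. TBX3, a T-box repressor, had 2 of 6, at 64.0 and 96.0 kb from the gene, and its remaining 4 carried induced RCOR2. NBEA, a protein of vesicle trafficking, and EYA1, a transcriptional co-activator, had outside regions of fold 6.61 and 7.10, and 5.79 and 5.81. The outside region of MYCN that ranked highest had fold 1.84 and 2.07 and lay 0.03 kb from a list region or induced peak.

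Noradrenergic genes, which make, store and take up the transmitter, had an outside region in 4 of 18 (22.2%), with a median length of 24.3 kb. Any LSD1 region was assigned to 14 of the 18, and outside regions were 20.8% of their LSD1 regions. NPY, a co-transmitter peptide, had 4 outside regions of 9, the strongest at fold 7.43 and 9.67. SLC6A2, the noradrenaline transporter, had 4 of 7, of which the highest-ranking lay 1.95 kb from the gene with fold 6.34 and 5.96. DDC, the decarboxylase of catecholamine synthesis, had 1 of 7 in its body, at fold 7.98 and 6.46. SCG5, a secretory granule chaperone, had a single LSD1 region, which was an outside region with RCOR1 at fold 9.73 and 5.78 and RCOR3 in replicate 2 at 8.21.

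Receptor tyrosine kinases had an outside region in 2 of 18 genes, ALK and ERBB4, and the median length of the list was 138 kb. Any LSD1 region was assigned to 13 of the 18, and outside regions were 9 of their 58 LSD1 regions (15.5%). ALK, the receptor most often mutated in neuroblastoma, had 23 LSD1 regions, of which 7 were outside, 9 listed and 7 with induced RCOR2. All 7 outside regions lay in the gene body and had neither RCOR1 nor RCOR3. Their LSD1 fold ran from 4.48 to 6.88 in replicate 1 (median 5.72) and from 4.79 to 9.40 in replicate 2 (median 6.46). The 7 ALK regions with induced RCOR2 ran from 5.04 to 30.6 and from 7.89 to 42.8, so the ranges overlapped.

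Potassium channel genes, which set membrane excitability, had the highest share, 7 of 24 (29.2%), and they are long, with a median of 328 kb. Any LSD1 region was assigned to 12 of the 24. Outside regions were 11 of the 66 LSD1 regions of this list (16.7%), near the 15.4% for all protein-coding genes. Among them KCNIP1, a channel-interacting protein, had a region of fold 8.36 and 15.5, KCNH1 had 6.34 and 8.39, and KCNQ5 had 5.79 and 6.46. Axon guidance genes followed with 9 of 34 (26.5%) and a median length of 248 kb. Of the 34, 28 had any LSD1 region, and outside regions were 18 of 169 LSD1 regions (10.7%), below the share for all genes. Among them SEMA3C, a secreted semaphorin, had fold 6.34 and 6.78, the plexin receptor genes PLXNA2 and PLXNA4 had 6.07 and 8.07, and 5.55 and 8.19, and SLIT3, a secreted guidance ligand, had 7.16 and 5.81.

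Genes of the LSD1-CoREST complex had an outside region in 2 of 21, with a median length of 68.4 kb. These were HDAC2, a deacetylase of the complex, whose only LSD1 region lay 23.8 kb away with fold 5.79 and 4.53, and ZNF217, a zinc-finger partner, with 4.62 and 5.66. Of the SNAG-domain factor genes, SCRT2, a neural repressor, was 1 of 11 and had a region 4.91 kb away with fold 4.95 and 5.32. Among the remaining lists, Wnt genes had 3 of 30, mesenchymal-state genes 3 of 32, neurotransmitter receptors 2 of 25, neuronal targets of REST 2 of 25, Schwann and glial genes 1 of 14, cell-cycle genes 1 of 30 and liver genes 1 of 25. Ribosomal protein genes had 0 of 49, keratinocyte genes 0 of 23, immediate early genes 0 of 19 and retinoic acid genes 0 of 16. Of these genes, 9, 3, 7 and 5 had some LSD1 region. Their LSD1 regions were few, at 9, 4, 12 and 10, and 15.4% of the LSD1 regions of all protein-coding genes were outside regions. Without LSD1 replicate 1, the 4 lists had 1, 0, 2 and 3 genes with an outside region. Without LSD1 replicate 2 they had 5, 1, 2 and 1.

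**Figure D5:**
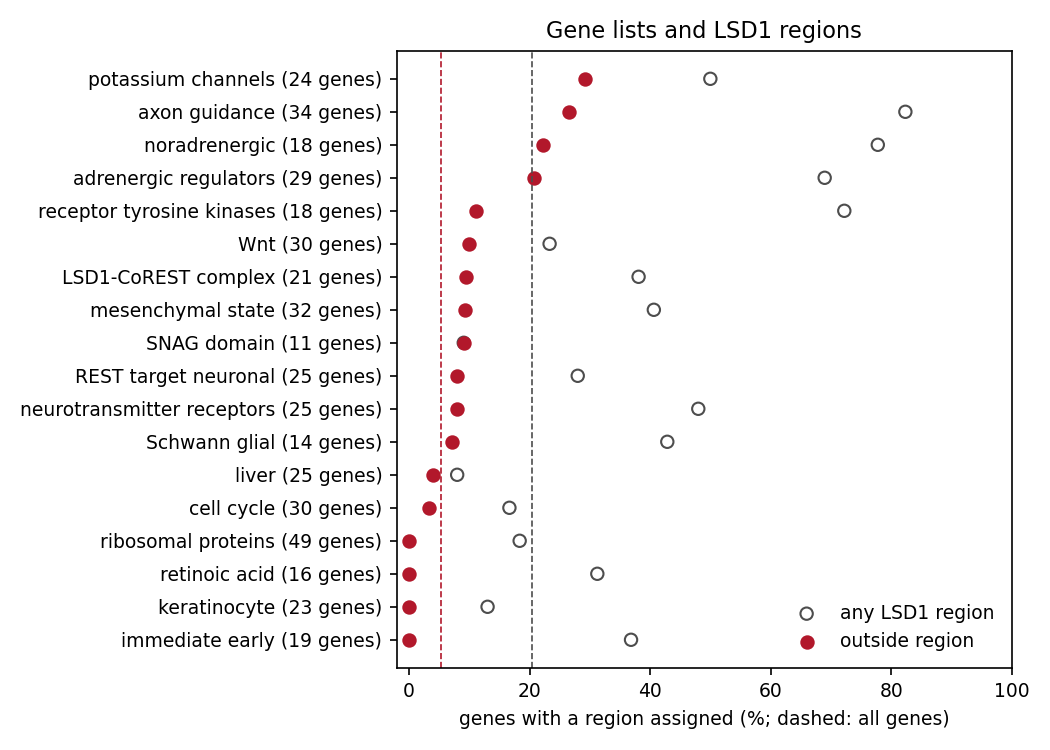
Share of the genes of each list (%, horizontal axis) with an outside region (filled) and with any LSD1 region (open; hidden under the filled point where equal), with dashed lines for all protein-coding genes at 5.30% and 20.4%. Potassium channels, axon guidance, noradrenergic genes and adrenergic regulators stand highest for outside regions, at 20.7% to 29.2%, and 4 lists stand at 0.

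The 10 genes with the most outside regions had 7 to 11 each. CWH43, a gene of lipid remodelling of anchored proteins, had 11 of its 16 LSD1 regions outside, all beyond the gene body and none above fold 2.81 in replicate 1 or 3.78 in replicate 2. These lay 31.1 to 91.2 kb from a gene end, in the bin at 45 to 50 Mb of chromosome 4 described above. They formed clusters of 6 and 5 regions, each with RCOR1 in 4, and RCOR3 was in 17 of the 21 outside regions of that bin. CLSTN2, a synaptic calsyntenin, had 8 of 21, and ELMO1, an activator of Rac signalling, had 8 of 21. AUTS2, a neurodevelopmental regulator, had 7 of 38, all in its body, with median folds of 5.25 and 4.53. MECOM, a zinc-finger transcription factor, had 7 of 17 at median folds of 6.34 and 6.12. SEZ6L, a neuronal membrane protein on chromosome 22, had 7 of 9 at 5.17 and 6.26, and its remaining 2 were listed regions at 9.20 and 8.55. SEPTIN7, PLPPR4 and SH3PXD2B had 7 each, of 10, 20 and 10 LSD1 regions.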

How the data were processed

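Peaks of 10 ChIP-seq libraries (2 for each of 5 groups) were used as deposited. The submitters' processing notes name BWA 0.7.17, MACS2 and deepTools, and GRCh38 (hg38) as the genome build. The control input, duplicate handling and further settings were not given in the sources used here. The fold enrichment of a peak is a ratio over background that the authors' peak caller wrote. The deposited −log10 q-value is the caller's significance, and no deposited peak had a q-value above 0.05. The RCOR2-high and RCOR2-low lists deposited by the authors hold positions without values, with no account of how they were made in those sources. Replicates are numbered per the labels; some peak names inside the lists carry other replicate names. Read counts were not used, so the depth of each library is unknown and its precision cannot be given.

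Peaks on autosomes and X were merged where they overlapped or adjoined, and a region had to hold a peak of both LSD1 libraries. An overlap of 1 bp counted as presence, and a region's fold in a library was that of its highest peak. Genes came from a RefSeq table of GRCh38.p14 without strand (19970 protein-coding genes), so either end of a gene stands in for its promoter. Each region went to the protein-coding gene whose body it overlapped, or else to the nearest within 100 kb. Shares have Wilson 95% intervals. Of the comparisons, 4 differences of shares were tested with Fisher's exact test (two-sided, Benjamini-Hochberg over the 4, threshold 0.05), and p-values under 1e-300 were set to it. Regions of the same libraries are not replicates, so intervals and tests cover counting error only. Whether replicates are separate cultures is not stated in the labels. The calculations were tested on simulated data (Python 3.11.15, numpy 2.4.6, pandas 2.3.3, scipy 1.17.1, matplotlib 3.10.9).

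The regions and the 18 gene lists (443 of 444 genes found by symbol) were chosen with earlier results of these data known. Named are all members of the adrenergic, SNAG-domain and LSD1-CoREST lists with such a region, up to 4 of every other list, the 10 highest-ranking regions and the 3 highest in each class of RCOR1 and RCOR3 presence (ranked by LSD1 fold percentile in the library where it was lower), and the 10 genes with the most regions. Not every gene the rule takes is printed, some results are not reported here, and the few named outside it are marked as chosen after their values were seen. Motifs were searched in promoter windows of 300 bp, and the sequence of the regions themselves was not used here. Start sites on chromosome 8 were not used here. Alternatives covered each replicate left out, stronger peaks, stricter overlap, distance from list regions and RCOR2 peaks, the MYCN locus, uninduced FLAG peaks, and other definitions of gene proximity.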

Additional observations from a re-analysis of the deposited data

How the results depend on the processing

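Of the 57 recomputed values of the 4 tested differences, 56 kept their direction and 53 also kept their side of the threshold. The 57 leave out some comparisons of RCOR3 with listed regions. Among regions with RCOR1, RCOR3 replicate 2 had the other order, with 45.1% of outside and 31.0% of listed regions. Among regions with RCOR1 in the matched fold band, RCOR3 of both libraries was present in 5.88% and 6.02%. RCOR3 replicate 2 was present there in 11.8% of 34 outside regions and 13.9% of listed regions. The RCOR3 difference from regions with induced RCOR2 had the other sign (0.0535 points) among regions without RCOR1, and the cause was not tested. The gene-end difference from listed regions missed the threshold with LSD1 peaks above the median fold (-0.378 points) and within the matched fold band (-0.784 points), and with replicates left out it ranged from -2.05 to -0.522 points. With replicates left out, the number of outside regions ranged from 2073 to 6409, their RCOR1 share from 1.48% to 7.41%, their RCOR3 share from 0.478% to 7.94%, their gene-end share from 2.14% to 3.91%, their gene-body share from 42.5% to 48.0%, and the list genes from 105 to 106, against 44 with both LSD1 libraries. LSD1 peaks above the median fold left 558 outside regions, with RCOR3 in 2.33% and gene bodies in 50.9%. Peaks of either library gave 8.87% for RCOR1 and 8.87% for RCOR3. The gene-end share was 0.390% at 500 bp, 1.20% for start sites, and 2.94% with a gene within 100 kb, where gene bodies held 59.3%. The matched band and the limit on gene distance were chosen after seeing the data. No paired analysis was possible because the tests run over regions, and the labels do not say that libraries of different antibodies with the same number share a culture. Without read depth, a missing peak cannot be told apart from one too weak to be called.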
